A study of Homo sapiens with 31 samples.

Results

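The serpin genes were examined as 1 gene family across all 31 mRNA libraries of the 4 labelled groups. Members were the rows of the FPKM table whose symbol is SERPIN followed by a clade letter from A to I and a number, which gave 34 of the 19221 genes used. Clade B held 13 of them, clade A 10, clade E 3, clades F and I 2 each, and clades C, D, G and H 1 each. FPKM are fragments scaled to gene length and to the mapped fragments of a library, so levels can be set beside each other between genes. C13* is a cisplatin-resistant cell line that the study used as an ovarian cancer model. It carried a control shRNA (C13* shCON, n = 7) or an shRNA against CEBPB (C13* shCEBPB, n = 8), both delivered with lentiviruses. A2780 (n = 8) is an ovarian cancer line, and A2780 OlaR (n = 8) was raised from it by continued culture in rising doses of the PARP inhibitor olaparib. The A2780 OlaR libraries are labelled as treated with olaparib, and the study's methods speak of resistant clones without giving their number. All groups are cultured cells, and the sequence of the shRNA is not given in the sources used here. The study itself raises doubts about how well A2780 and C13* stand for high-grade serous ovarian cancer, and for C13* it names the origin of the line as the reason.

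Serpins are protease inhibitors that expose a loop as bait. When a protease cuts the loop, the serpin changes shape and traps the enzyme in a covalent complex, so that both are used up. Most clades are secreted, and many clade A members are blood proteins made by the liver, whereas clade B members lack a classical signal peptide and act mainly inside cells. Some members have lost inhibition, among them maspin (SERPINB5), pigment epithelium-derived factor (SERPINF1) and the collagen chaperone HSP47 (SERPINH1). Several clade B genes are typical of stratified squamous epithelium. C/EBPβ, the product of CEBPB, is a transcription factor that binds DNA as a dimer.

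Clade B lies in 2 groups of genes on hg38 in the GENCODE 44 annotation. On chromosome 18, 10 members lie between 63476958 and 64019779, a span of 543 kb, in the order SERPINB5, SERPINB12, SERPINB13, SERPINB4, SERPINB11, SERPINB3, SERPINB7, SERPINB2, SERPINB10 and SERPINB8. On chromosome 6, SERPINB1, SERPINB9 and SERPINB6 lie between 2832332 and 2972165, a span of 140 kb. The bases upstream of the RefSeq start are shown for 7 clade B genes (RefSeq, GRCh38.p14), 2 from chromosome 6 and 5 from chromosome 18. The 5 had higher means in C13* shCON and A2780 OlaR than in C13* shCEBPB and A2780. Among them SERPINB4 was low, at 0.729 FPKM in C13* shCON and 1.19 in A2780 OlaR. The bases are given 5′ to 3′ on the strand of the gene and outside every annotated exon. Those of SERPINB13 and SERPINB2 lie within the span of longer annotated transcripts. Capitals mark the AP-1-like pattern TGANTCA, in which N is any base, and the TATA motif TATAAA. The C/EBP motif TTGCNNAA, searched on both strands like the others, has no match in the stretches printed. It does have 1 in the window of SERPINB8 (TTGCACAA, first base at -57 from the start), which overlaps an annotated exon and is not printed. The windows of SERPINB13 and SERPINB1 also overlap annotated exons and were cut to a stretch outside them. From the chromosome 18 group the stretches are chr18:63476708-63476957 (+), chr18:63587128-63587299 (+), chr18:63644257-63644506 (-), chr18:63661894-63662143 (-) and chr18:63887455-63887704 (+).
SERPINB5: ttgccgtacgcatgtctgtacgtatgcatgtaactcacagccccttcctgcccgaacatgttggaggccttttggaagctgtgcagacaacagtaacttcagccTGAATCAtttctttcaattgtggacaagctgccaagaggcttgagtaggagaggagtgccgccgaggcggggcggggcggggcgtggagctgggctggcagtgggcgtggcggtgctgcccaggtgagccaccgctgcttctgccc
SERPINB13: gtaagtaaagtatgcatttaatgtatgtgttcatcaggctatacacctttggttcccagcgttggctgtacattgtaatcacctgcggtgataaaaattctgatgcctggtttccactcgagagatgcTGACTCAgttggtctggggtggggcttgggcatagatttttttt
SERPINB4: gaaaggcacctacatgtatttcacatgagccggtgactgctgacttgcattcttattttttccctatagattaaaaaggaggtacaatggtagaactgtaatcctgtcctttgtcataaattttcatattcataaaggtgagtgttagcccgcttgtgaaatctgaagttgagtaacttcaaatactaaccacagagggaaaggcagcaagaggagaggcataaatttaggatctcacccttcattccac
SERPINB3: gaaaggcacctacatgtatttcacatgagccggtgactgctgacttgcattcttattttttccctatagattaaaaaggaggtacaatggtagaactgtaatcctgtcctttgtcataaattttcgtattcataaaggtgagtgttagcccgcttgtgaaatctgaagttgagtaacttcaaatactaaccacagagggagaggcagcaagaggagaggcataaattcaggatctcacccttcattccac
SERPINB2: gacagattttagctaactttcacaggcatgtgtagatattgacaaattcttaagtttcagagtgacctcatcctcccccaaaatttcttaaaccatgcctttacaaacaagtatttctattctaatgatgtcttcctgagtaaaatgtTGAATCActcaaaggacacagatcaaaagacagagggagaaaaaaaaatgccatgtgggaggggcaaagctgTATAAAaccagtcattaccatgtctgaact
From the chromosome 6 group, SERPINB1 and SERPINB9 are shown. Both were high in A2780, where most of the chromosome 18 genes were at or near 0, and at or near 0 in A2780 OlaR. SERPINB6, which was high in every group, is not shown. The stretches of SERPINB1 and SERPINB9 are chr6:2841960-2842113 (-) and chr6:2903310-2903559 (-).
SERPINB1: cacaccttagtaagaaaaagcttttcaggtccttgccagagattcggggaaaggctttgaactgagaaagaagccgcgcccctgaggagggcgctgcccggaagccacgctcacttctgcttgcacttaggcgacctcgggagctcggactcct
SERPINB9: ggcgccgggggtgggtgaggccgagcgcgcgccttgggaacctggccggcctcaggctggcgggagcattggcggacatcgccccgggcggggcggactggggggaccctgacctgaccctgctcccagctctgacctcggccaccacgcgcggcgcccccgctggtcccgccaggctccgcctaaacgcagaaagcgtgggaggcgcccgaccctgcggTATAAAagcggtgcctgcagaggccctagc

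The 250 upstream bases could be searched for 27 of the 34 members, 11 of them in clade B. SERPINB10, SERPINB11, SERPINC1, SERPINF1, SERPINF2 and SERPING1 were among those not in the table of upstream sequences. The AP-1-like pattern TGANTCA was found in 8 of the 27 members. Of these, 6 were clade B genes on chromosome 18, namely SERPINB2, SERPINB5, SERPINB7, SERPINB8, SERPINB12 and SERPINB13. In SERPINB7, SERPINB8 and SERPINB13 at least 1 match had C or G as the middle base. The other matching members had only A or T there. TGANTCA was found in 8.06% of all 27305 genes of the table and in 6.57% of all 35116 windows of the same length. The C/EBP motif was found in 6 of 27 members, against 11% of all genes and 9.05% of all windows, and its clade B matches were SERPINB8 and SERPINB12. The TATA motif was found in 7 of 27 members, 5 of them in clade B, against 13% of all genes and 10.7% of all windows. A match is only a run of letters in this window and no binding was measured. The upstream stretches of SERPINB4 and SERPINB3 were 98.8% identical over 250 bases and differed by A126G, A201G and T228C, counted from 1 at the 5′ end with the SERPINB4 base first. Their longest coding transcripts were 95.7% identical, but only 57 of 1704 stretches of 100 bases in SERPINB3 (3.35%) and 57 of 1803 in SERPINB4 (3.16%) were shared exactly. How reads that fit both were assigned is not given in the sources used here, and their levels are uncertain in that respect.

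Absolute depth is unknown because FPKM give no read totals. Relative depth, read from the steps of low values, ran from 0.865 to 1.23 over the libraries, and the sum of FPKM per library ran from 417556 to 454578. CEBPB itself was at 85.8 ± 9.93 FPKM (SD, n = 7) in C13* shCON, 47.1 ± 9.05 (SD, n = 8) in C13* shCEBPB, 99.7 ± 7.63 in A2780 and, in A2780 OlaR, 112 ± 11.6 (SD, n = 8 for both). The A2780 OlaR libraries were closer to C13* shCON than to A2780 over all genes. Pearson's r of log2(FPKM + 1) across genes was 0.990 to 0.995 between A2780 OlaR and C13* shCON libraries, 0.849 to 0.856 between A2780 OlaR and A2780, and 0.882 to 0.890 between C13* shCEBPB and C13* shCON. Since this held for all 8 A2780 OlaR libraries, no comparison of that group can be given without them. By these values the pairs labelled as 1 line, C13* shCEBPB with C13* shCON and A2780 OlaR with A2780, were far apart, and the closest pair carries different line labels. Whether group labels were exchanged was not tested, and the groups are named here as labelled. The effects of CEBPB knockdown and of olaparib resistance cannot be told apart from a difference of cell line between the libraries compared. C13* shCON replicate 1 is A2780 in 1 field of its labels and C13* in its title, and its r with the other C13* shCON libraries was at least 0.996.

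Cell type markers also differed between groups. The squamous markers KRT5, KRT6A, KRT14, TP63 and SFN summed to 2523 to 3072 FPKM in C13* shCON and 2545 to 3348 in A2780 OlaR, but to 85.2 to 172 in C13* shCEBPB and 0.416 to 1.87 in A2780. Of these 5 markers, 5 had a group mean of at least 1 FPKM in C13* shCON and in A2780 OlaR, and only SFN did in each of the other groups. KRT5 and KRT6A were listed at 0 in every A2780 library. The mesenchymal marker VIM was at 809 FPKM in A2780, 342 in C13* shCEBPB, 9.82 in C13* shCON and 0.16 in A2780 OlaR, and ZEB1 had its higher means in the same pair of groups. The other mesenchymal markers did not follow VIM, since FN1 was lowest in A2780 (0.524) and CDH2 was lower in C13* shCEBPB (7.56) than in C13* shCON (17.3). Of the epithelial markers, EPCAM and CDH1 were at 111 and 82.9 FPKM in C13* shCON and below 1 in C13* shCEBPB, while KRT8 (459 and 882) and KRT18 (320 and 535) were higher in C13* shCEBPB. The epithelial list therefore summed highest in C13* shCEBPB, at 1262 to 1513 FPKM, against 931 to 1020 in C13* shCON, 939 to 1021 in A2780 OlaR and 84.9 to 93.3 in A2780. The ovarian markers PAX8, WT1 and MUC16 summed to at most 7.82 in any library. Of the haematopoietic markers, the leukocyte antigen gene PTPRC was at 85.9 FPKM in A2780 and at or near 0 in the other groups. The part of these differences in cell identity in the serpin results was not tested.

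Of the 34 members, 16 reached a mean of 1 FPKM in at least 1 group, 10 of the 13 in clade B and 6 of the 21 in other clades. The 10 in clade B were SERPINB1 to SERPINB9 and SERPINB13, and those in other clades included SERPINE2, SERPINF1, SERPINF2, SERPINH1 and SERPINI1. The number at a mean of 1 FPKM or more was 12 in C13* shCON, 9 in C13* shCEBPB, 8 in A2780 and 14 in A2780 OlaR, and for clade B alone it was 7, 4, 3 and 8. The plot of group means sets the members side by side.

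**Figure D1:**
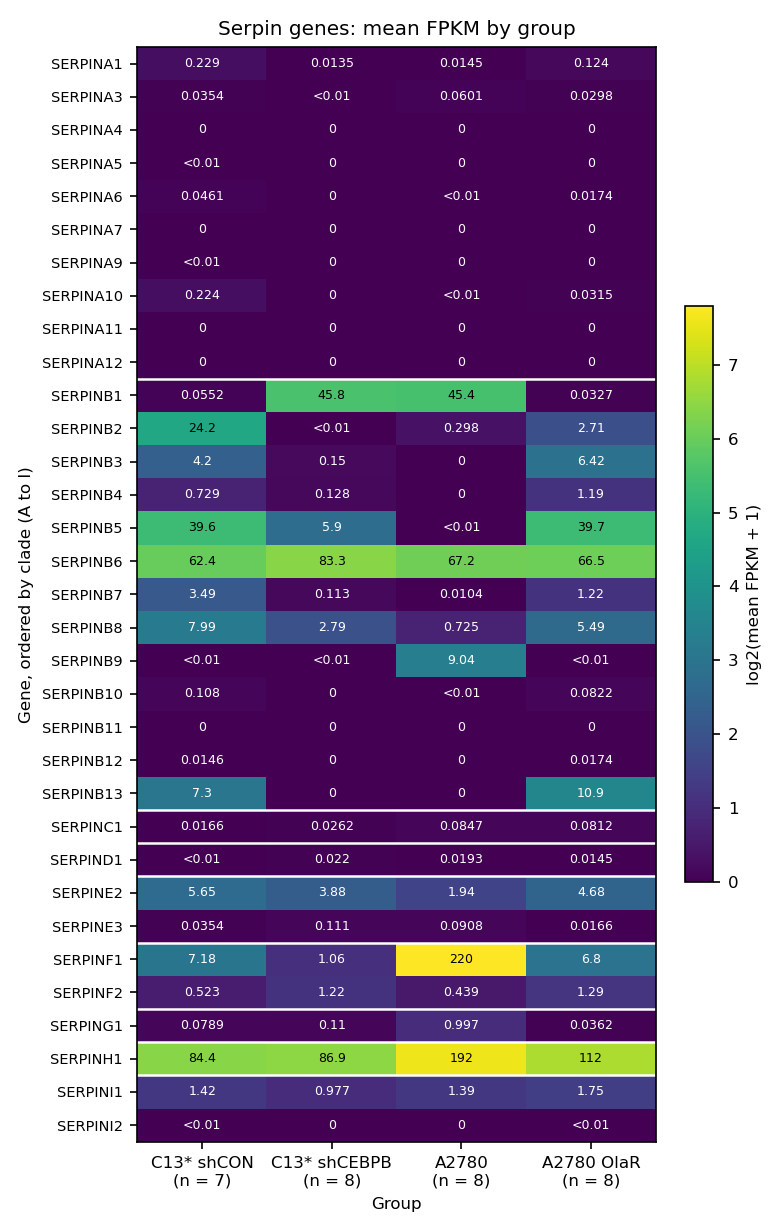
Mean FPKM of serpin genes in the 4 groups, with colour giving log2(mean FPKM + 1), the number in each cell giving the mean FPKM, and white lines parting the clades. SERPINB6 and SERPINH1 are bright in all 4 columns, SERPINB1 only in C13* shCEBPB and A2780, and SERPINF1 is brightest in A2780 at 220.

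The total serpin level was highest in A2780. FPKM summed over the 34 members were 276.3 ± 3.86 (SD, n = 7) in C13* shCON, 254.2 ± 8.22 (SD, n = 8) in C13* shCEBPB, 546.7 ± 9.86 in A2780 and, in A2780 OlaR, 283.3 ± 5.42 (SD, n = 8 for both). Clade B made up 54.3% ± 1.78 of this sum in C13* shCON, 54.3% ± 2.84 in C13* shCEBPB, 22.5% ± 0.775 in A2780 and 47.4% ± 3.10 in A2780 OlaR. A few genes carried most of the sum. SERPINF1 (40.2%) and SERPINH1 (35.1%) led in A2780. SERPINH1 and SERPINB6 led in each of the other groups, at 30.5% and 22.6% in C13* shCON, 34.2% and 32.8% in C13* shCEBPB, and 39.6% and 23.5% in A2780 OlaR.

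SERPINB5 encodes maspin, a clade B member without inhibitory activity that is typical of epithelial cells. It spans chr18:63476958-63505085 on the plus strand. Its lowest, median and highest FPKM were 37.1, 38.8 and 44.2 in C13* shCON, 4.27, 5.74 and 7.91 in C13* shCEBPB, and 34.6, 38.1 and 45.8 in A2780 OlaR. In A2780 it was listed at 0 in 7 of 8 libraries and at 0.0335 in the other. The groups overlapped only for A2780 OlaR with C13* shCON. SERPINB5 fell in C13* shCEBPB to 14.9% of the mean FPKM of C13* shCON (log2 fold change -2.57 ± 0.10 SE, limma adjusted p = 2.2e-14). It was higher in A2780 OlaR than in A2780 (log2 fold change 5.33 ± 0.06 SE, limma adjusted p = 3.1e-24).

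SERPINB2 encodes plasminogen activator inhibitor type 2, which inhibits urokinase. It spans chr18:63871692-63903888 on the plus strand, and 20% of its exonic bases are shared with a second coding annotation on the same strand. Its lowest, median and highest FPKM were 22.4, 23.4 and 27.7 in C13* shCON, and 1.87, 2.78 and 3.64 in A2780 OlaR. They were 0.0531, 0.287 and 0.524 in A2780, and in C13* shCEBPB it was listed at 0 in 5 of 8 libraries with a highest value of 0.0279. No pair of these groups overlapped in the comparisons tested. SERPINB2 fell in C13* shCEBPB against C13* shCON (log2 fold change -4.64 ± 0.05 SE, limma adjusted p = 8.15e-23) and was higher in A2780 OlaR than in A2780 (log2 fold change 1.51 ± 0.09 SE, limma adjusted p = 1.89e-12). It was the serpin that parted A2780 OlaR from C13* shCON most, since its mean FPKM was 8.93-fold higher in C13* shCON (log2 fold change -2.77 ± 0.08 SE, limma adjusted p = 2.35e-14). Only 6 of the 11547 genes tested between these 2 groups (0.052%) differed at least 4-fold on the log2(FPKM + 1) scale, and SERPINB2 was 1 of them.

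SERPINB13, or headpin, is a keratinocyte serpin that inhibits lysosomal cysteine cathepsins. It spans chr18:63586989-63604639 on the plus strand. It was listed at 0 in all 8 libraries of C13* shCEBPB and in all 8 of A2780. Its lowest, median and highest FPKM were 6.44, 6.94 and 8.81 in C13* shCON and 9.61, 10.7 and 12.4 in A2780 OlaR, which do not overlap. It fell in C13* shCEBPB (log2 fold change -3.05 ± 0.05 SE, limma adjusted p = 1.12e-19), and no fold on the FPKM scale is given against a group listed at 0. It was higher in A2780 OlaR than in A2780 (log2 fold change 3.57 ± 0.05 SE, limma adjusted p = 9.58e-23) and than in C13* shCON (log2 fold change 0.52 ± 0.07 SE, limma adjusted p = 5.72e-06).

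SERPINB3 and SERPINB4, the squamous cell carcinoma antigens, are near-identical neighbours that inhibit cysteine cathepsins and chymotrypsin-like serine proteases respectively. SERPINB3 spans chr18:63655197-63661893 and SERPINB4 chr18:63637259-63644256, both on the minus strand. SERPINB3 shares 36.3% of its exonic bases with SERPINB11 on the opposite strand, and SERPINB11 was listed at 0 in every library. Both were listed at 0 in all 8 A2780 libraries. The lowest, median and highest FPKM of SERPINB3 were 3.47, 3.97 and 5.05 in C13* shCON, 0.0145, 0.121 and 0.354 in C13* shCEBPB, and 4.1, 5.84 and 8.52 in A2780 OlaR. SERPINB3 fell in C13* shCEBPB (log2 fold change -2.18 ± 0.07 SE, limma adjusted p = 2.25e-15) and was higher in A2780 OlaR than in A2780 (log2 fold change 2.86 ± 0.10 SE, limma adjusted p = 3.5e-16), without overlap in either. SERPINB4 had lower group means than SERPINB3 where either was above 0, at 0.407 to 0.989 FPKM in C13* shCON, 0.0524 to 0.326 in C13* shCEBPB and 0.666 to 1.41 in A2780 OlaR. It was tested only between A2780 OlaR and C13* shCON, where it passed the filter through A2780 OlaR alone and was higher in A2780 OlaR (log2 fold change 0.34 ± 0.08 SE, limma adjusted p = 0.00313), as was SERPINB3 (log2 fold change 0.49 ± 0.11 SE, limma adjusted p = 0.00197), and both overlapped.

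SERPINB7, or megsin, a serpin of kidney mesangial cells and keratinocytes, spans chr18:63752935-63805376 on the plus strand. Its lowest, median and highest FPKM were 2.83, 3.36 and 4.27 in C13* shCON, 0.0245, 0.0828 and 0.299 in C13* shCEBPB, and 1.05, 1.18 and 1.54 in A2780 OlaR, and in A2780 it was listed at 0 in 6 of 8 libraries. It fell in C13* shCEBPB (log2 fold change -2.01 ± 0.07 SE, limma adjusted p = 6.05e-15). It was higher in A2780 OlaR than in A2780 (log2 fold change 1.13 ± 0.04 SE, limma adjusted p = 1.05e-15), and its mean FPKM was 2.86-fold higher in C13* shCON than in A2780 OlaR (log2 fold change -1.01 ± 0.07 SE, limma adjusted p = 2.37e-09). SERPINB8, an inhibitor of furin, is the last gene of the group at chr18:63970029-64019779 on the plus strand. It was above 0 in every library. It ran from 7.62 to 8.93 FPKM in C13* shCON, from 1.99 to 3.62 in C13* shCEBPB, from 0.347 to 0.904 in A2780 and from 4.73 to 6.11 in A2780 OlaR. Its log2 fold change was -1.26 in C13* shCEBPB against C13* shCON (limma adjusted p = 3.09e-11) and 1.92 in A2780 OlaR against A2780 (limma adjusted p = 3.36e-16). SERPINB10, SERPINB11 and SERPINB12 stayed at or below a group mean of 0.108 FPKM.

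On chromosome 6 the pattern differed from gene to gene. SERPINB1, an inhibitor of neutrophil elastase and related granule proteases, spans chr6:2832332-2841959 on the minus strand. Its lowest, median and highest FPKM were 39.5, 45 and 52.7 in C13* shCEBPB and 42.6, 45.8 and 46.9 in A2780. They were 0.0329, 0.05 and 0.0769 in C13* shCON, and 0, 0.0323 and 0.0638 in A2780 OlaR. High and low groups were therefore opposite to those of the chromosome 18 genes. SERPINB1 rose in C13* shCEBPB (log2 fold change 5.46 ± 0.06 SE, limma adjusted p = 3.39e-22) and was lower in A2780 OlaR than in A2780 (log2 fold change -5.49 ± 0.03 SE, limma adjusted p = 3.28e-28). Between A2780 and C13* shCEBPB the log2 difference was -0.01 (SE 0.06, limma adjusted p = 0.917), but it ran from -0.21 in libraries 1 to 3 to 0.12 in libraries 4 to 8.

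SERPINB9, the inhibitor of granzyme B, spans chr6:2887270-2903309 on the minus strand. It was found at a lowest, median and highest FPKM of 8.29, 8.97 and 10.4 in A2780, and at no more than 0.0273 in any library of the other groups. It was lower in A2780 OlaR than in A2780 (log2 fold change -3.31 ± 0.04 SE, limma adjusted p = 1.76e-23) and higher in A2780 than in C13* shCEBPB (log2 fold change 3.32 ± 0.04 SE, limma adjusted p = 7.33e-23). SERPINB9 passed the filter only through A2780 in both comparisons, so it had to differ. SERPINB6, an inhibitor of cathepsin G, spans chr6:2948159-2972165 on the minus strand and was the steadiest clade B gene. It ran from 59.3 to 66.1 FPKM in C13* shCON, from 76.5 to 94.3 in C13* shCEBPB, from 65.2 to 69.7 in A2780 and from 61.9 to 69.8 in A2780 OlaR. It rose in C13* shCEBPB by a log2 fold change of 0.41 (SE 0.05, limma adjusted p = 1.58e-07), and did not pass between A2780 OlaR and A2780 (log2 fold change -0.02 ± 0.03 SE, limma adjusted p = 0.619). The plot of clade B libraries shows these levels.

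**Figure D2:**
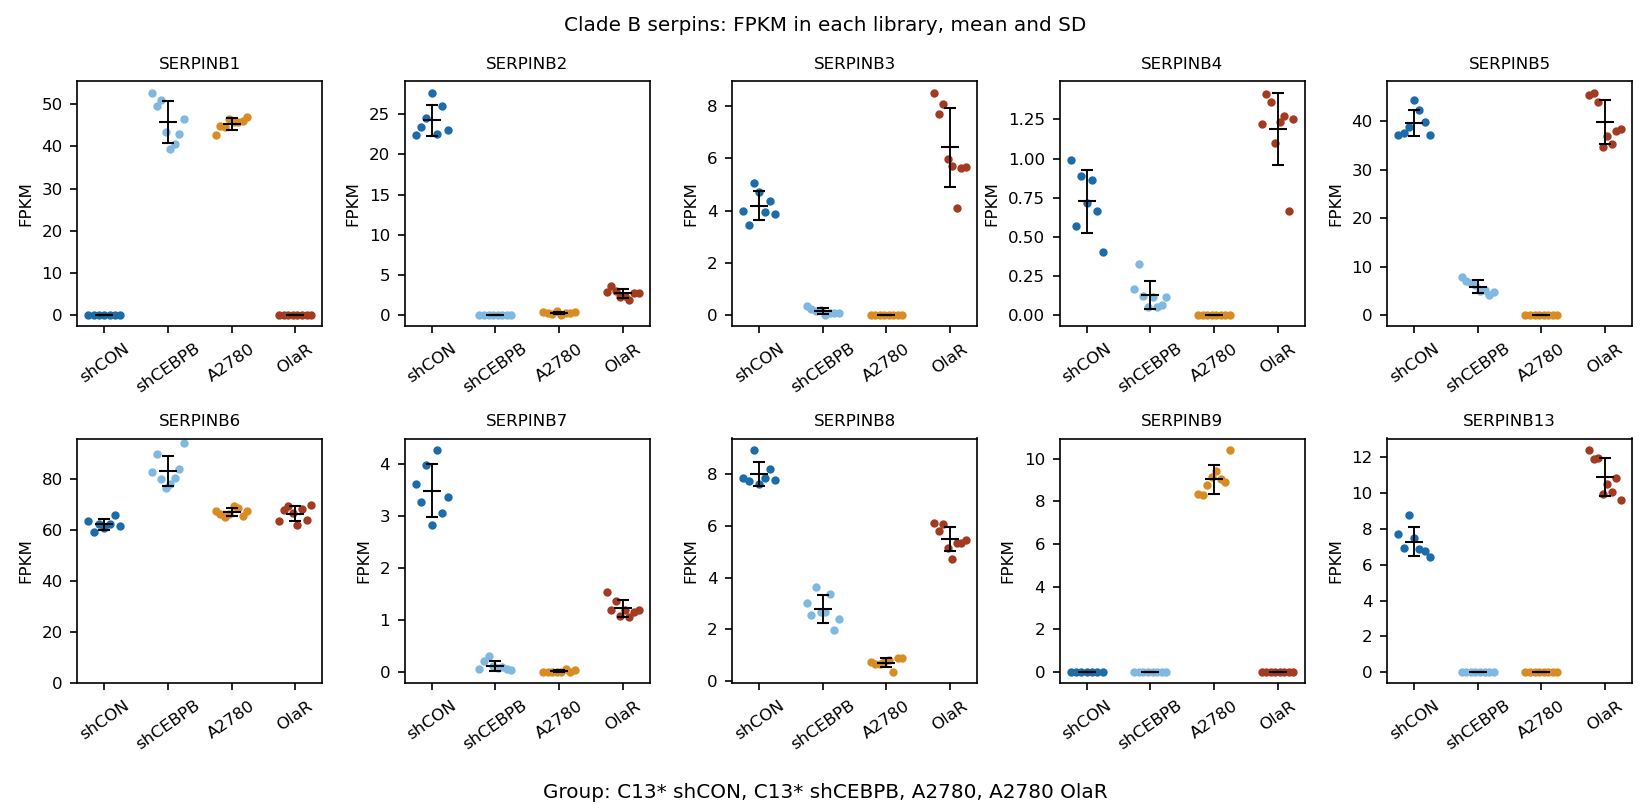
FPKM of the 10 clade B genes that reached a group mean of 1 FPKM, with 1 dot per library, the mean as a black bar and the SD as its whiskers, in C13* shCON (n = 7), C13* shCEBPB, A2780 and A2780 OlaR (n = 8 each). SERPINB2, SERPINB3, SERPINB5, SERPINB7 and SERPINB13 sit near 0 in A2780 and SERPINB1 near 0 in C13* shCON and A2780 OlaR, while SERPINB9 is above 8 in A2780 only.

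The genes beside the clade B groups did not all move with them. Within the chromosome 18 group lies HMSD, a short serpin-like gene that shares 370 bp of exon with SERPINB8 on the same strand. HMSD was at 5.72 ± 1.09 FPKM (SD, n = 7) in C13* shCON and 6.15 ± 1.02 (SD, n = 8) in A2780 OlaR, was listed at 0 in C13* shCEBPB, and was at 0.00965 in A2780. It fell in C13* shCEBPB (log2 fold change -2.73, limma adjusted p = 2.99e-16). HMSD passed the filter there only through C13* shCON, and in A2780 OlaR against A2780 only through A2780 OlaR. It therefore had to differ in both comparisons. Before the group, VPS4B was at 14.1 FPKM in C13* shCON and 12.2 in C13* shCEBPB (log2 fold change -0.20, limma adjusted p = 0.00215), and KDSR at 8.85 and 11.8 (log2 fold change 0.38, limma adjusted p = 4.27e-07). BCL2 was under 1 FPKM in both and was not tested there. After the group, CDH7 and CDH19 were near 0 in all groups, and DSEL rose in C13* shCEBPB from 1.08 to 3.02 (log2 fold change 0.94, limma adjusted p = 7.5e-10). In A2780 OlaR against A2780 the log2 fold changes were 0.03 for KDSR (limma adjusted p = 0.486), 0.48 for VPS4B (limma adjusted p = 6.88e-09) and 2.81 for HMSD (limma adjusted p = 5.44e-18). BCL2 was lower in A2780 OlaR (0.726 FPKM) than in A2780 (3.58), with a log2 fold change of -1.41 (limma adjusted p = 2.9e-14).

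Around the chromosome 6 group, NQO2 was at 24 FPKM in C13* shCON, 39.5 in C13* shCEBPB, 43.2 in A2780 and 23.5 in A2780 OlaR. WRNIP1 was at 38.8, 23.6, 18.2 and 41.2 in the same order, and BPHL at 10.8, 4.34, 17 and 10.1. GMDS was at 15.8, 22.3, 30.2 and 16.2 in that order, and RIPK1 at 6.39, 5.78, 9.21 and 5.81. MYLK4 had a mean of at most 0.343 in any group. NQO2, WRNIP1, BPHL, GMDS and RIPK1 were thus above 4 FPKM in every group. SERPINB1 was at or near 0 in 2 groups and SERPINB9 in 3. The plot of genes in chromosomal order shows both groups with their neighbours.

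**Figure D3:**
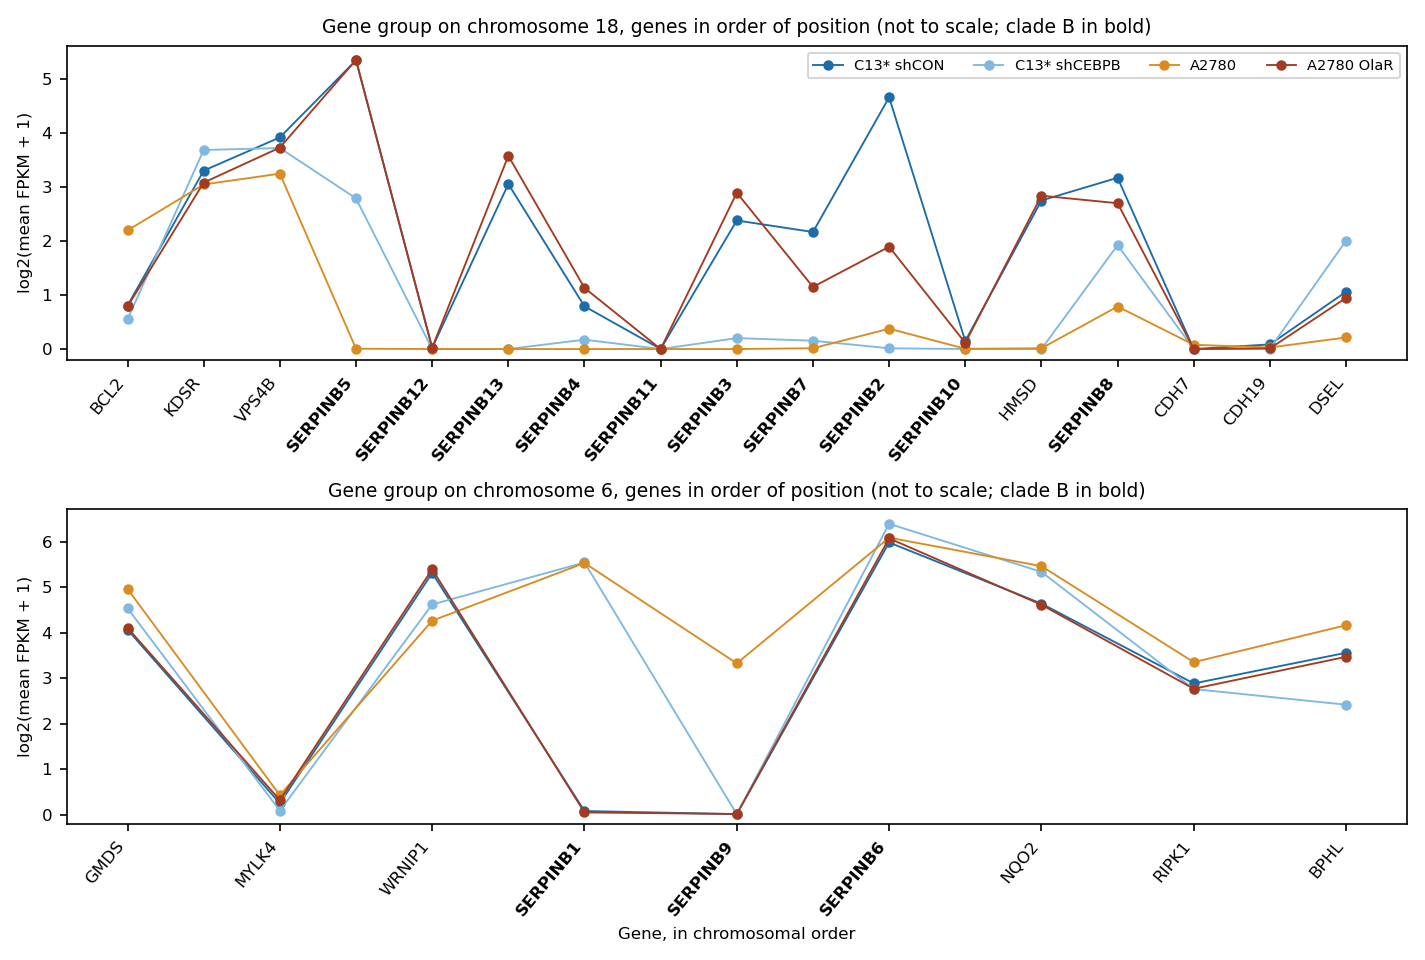
Mean level, as log2(mean FPKM + 1), of the clade B genes (bold) and the nearest measured coding genes in chromosomal order on chromosome 18 (upper) and chromosome 6 (lower), with 1 line per group joining genes for ease of reading. The lines of C13* shCON and A2780 OlaR are farthest apart at SERPINB2 and SERPINB7, and A2780 stays under 0.5 FPKM from SERPINB5 to HMSD.

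SERPINE2 encodes protease nexin, an inhibitor of thrombin and urokinase, at chr2:223975045-224039318. Its means were 5.65, 3.88, 1.94 and 4.68 FPKM in C13* shCON, C13* shCEBPB, A2780 and A2780 OlaR, with log2 fold changes of -0.46 in C13* shCEBPB (limma adjusted p = 0.000149) and 0.95 in A2780 OlaR against A2780 (limma adjusted p = 3.83e-12). Of its targets, urokinase (PLAU) was at 7.94 FPKM in C13* shCON, 1.49 in C13* shCEBPB, 5.56 in A2780 and 9.86 in A2780 OlaR. Tissue plasminogen activator (PLAT), a target of SERPINE2 and of SERPINI1, was at 5.24, 3.62, 1.27 and 7.34.

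SERPINF1 encodes pigment epithelium-derived factor, a secreted non-inhibitory serpin known for blocking vessel growth, at chr17:1762029-1777565. Its lowest, median and highest FPKM were 212, 220 and 229 in A2780, 6.53, 6.94 and 8.3 in C13* shCON, 6.26, 6.74 and 7.51 in A2780 OlaR, and 0.8, 1.01 and 1.38 in C13* shCEBPB. Only C13* shCON and A2780 OlaR overlapped. It was the highest serpin in A2780, and its mean FPKM there was 32.3-fold that in A2780 OlaR (log2 fold change of A2780 OlaR against A2780 -4.82, SE 0.03, limma adjusted p = 7.94e-27). It was 207-fold that in C13* shCEBPB (log2 fold change 6.75 ± 0.06 SE, limma adjusted p = 2.76e-25), and SERPINF1 also fell in C13* shCEBPB against C13* shCON (log2 fold change -1.99 ± 0.07 SE, limma adjusted p = 1.08e-14). Its receptor PNPLA2 was at 45.9 FPKM in C13* shCON, 40 in C13* shCEBPB, 36.1 in A2780 and 40.7 in A2780 OlaR.

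SERPINH1 encodes HSP47, the chaperone of procollagen in the endoplasmic reticulum, at chr11:75562056-75572783. It ran from 77.6 to 91.2 FPKM in C13* shCON, from 78.4 to 94.8 in C13* shCEBPB, from 172 to 204 in A2780 and from 101 to 124 in A2780 OlaR. It was lower in A2780 OlaR than in A2780 (log2 fold change -0.78 ± 0.05 SE, limma adjusted p = 1.98e-11) and did not pass between C13* shCEBPB and C13* shCON (log2 fold change 0.04 ± 0.05 SE, limma adjusted p = 0.473). In that comparison it passed in opposite directions within the library ranges, at -0.14 in libraries 1 to 3 (limma adjusted p = 0.0363) and 0.16 in libraries 4 to 8 (limma adjusted p = 0.0144). The collagens it serves were not level with it. COL3A1 was at 358 FPKM in A2780 and under 0.5 in the other groups, while COL4A1 was at 58.2 in C13* shCEBPB and at 0.00808 in A2780. SERPINI1, or neuroserpin, an inhibitor of tissue plasminogen activator, stayed between 0.747 and 2.54 FPKM in all libraries. It fell in C13* shCEBPB by a log2 fold change of -0.30 (limma adjusted p = 0.000826), with libraries that overlapped, but with quantile normalization the value was -0.02 and not called (limma adjusted p = 0.813). Its difference between A2780 OlaR and A2780 was 0.20 (limma adjusted p = 0.0488), with libraries that overlapped (exact permutation test, two-sided, p = 0.0695). SERPINF2, or alpha-2-antiplasmin, had means of 0.523, 1.22, 0.439 and 1.29 FPKM in C13* shCON, C13* shCEBPB, A2780 and A2780 OlaR and passed the filter in no comparison.

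**Figure D4:**
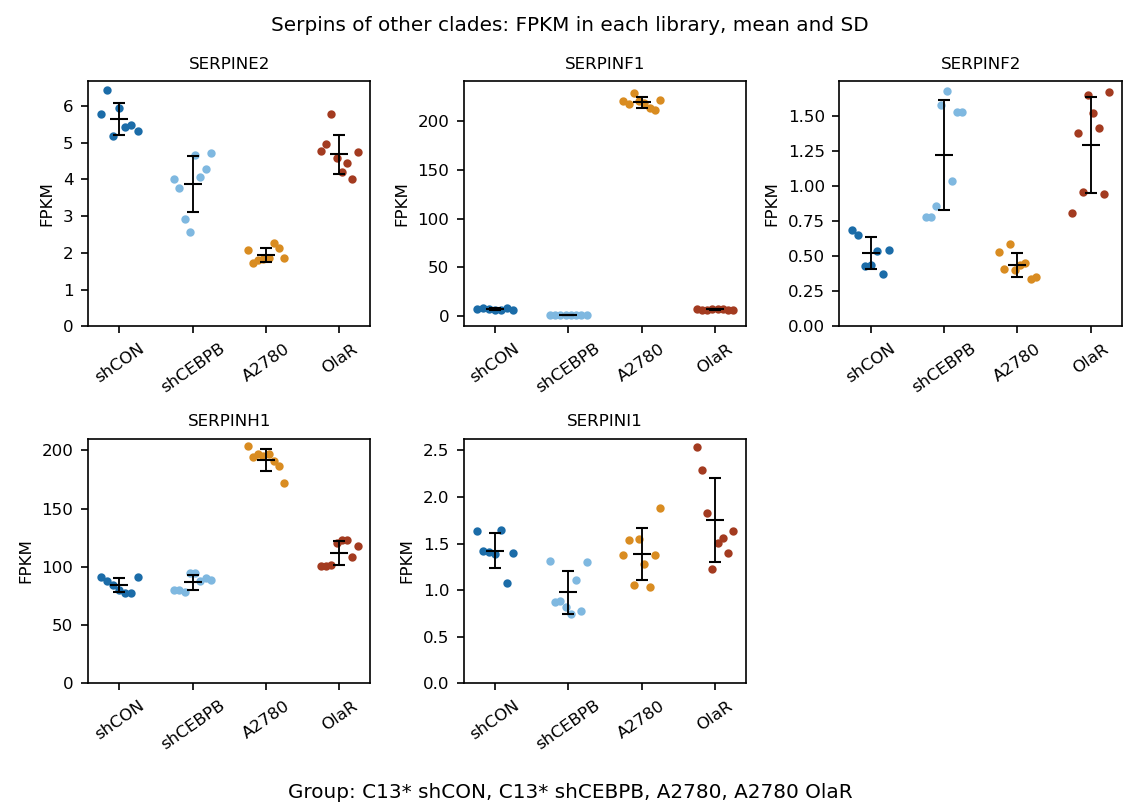
FPKM of 5 genes of other clades that reached a group mean of 1 FPKM, with 1 dot per library, the mean as a black bar and the SD as its whiskers, in C13* shCON (n = 7), C13* shCEBPB, A2780 and A2780 OlaR (n = 8 each). SERPINF1 and SERPINH1 are highest in A2780 and SERPINE2 lowest there.

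The other 18 members did not reach a mean of 1 FPKM in any group. Of these, 5 were listed at 0 in all 31 libraries, namely SERPINA4, SERPINA7, SERPINA11, SERPINA12 and SERPINB11. SERPING1, the inhibitor of complement C1r and C1s, came closest, at 0.997 ± 0.315 FPKM (SD, n = 8) in A2780 and at most 0.11 in the other groups. SERPINA1, the main plasma inhibitor of neutrophil elastase, was at 0.229 ± 0.123 FPKM (SD, n = 7) in C13* shCON and 0.123 ± 0.0551 (SD, n = 8) in A2780 OlaR, and at 0.0135 and 0.0145 in C13* shCEBPB and A2780. SERPINA10, which inhibits coagulation factor X, was at 0.224 ± 0.117 in C13* shCON and at 0 in every C13* shCEBPB library. SERPINC1, which encodes antithrombin, and SERPIND1, which encodes heparin cofactor II, had means of at most 0.0847 and 0.022 FPKM. The hepatocyte markers ALB, APOA1, TTR and AFP, which mark the usual source of these proteins, summed to at most 0.311 FPKM in any library.

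The first comparison set the libraries labelled C13* shCEBPB beside those labelled C13* shCON, to ask what changed with knockdown of CEBPB, within the limit on labels given above. Of the 34 serpins, 13 had at least 1 FPKM in 7 of the 15 libraries and were tested, and 12 of these had an adjusted p under 0.05 from limma, with 2 higher and 10 lower in C13* shCEBPB. Over all 12006 genes tested the share was 84.7%, with 38.9% higher and 45.7% lower. Libraries of both groups lay apart for 11 of the 13 serpins, against 66% of all genes tested. For such genes the exact permutation test (two-sided) can only give p = 0.000311, the smallest p that 7 and 8 libraries allow. It therefore adds nothing to the lack of overlap. In clade B 8 of 8 tested genes were called, 6 of them at least 4-fold on the log2(FPKM + 1) scale, and their median log2 fold change was -2.09. In the other clades 4 of 5 were called, none at least 4-fold on that scale, and the median was -0.30. SERPINF1 fell just short of the cut (log2 fold change -1.99), although its mean FPKM was 6.76-fold higher in C13* shCON. SERPINB7 was counted in clade B at -2.01. The median of all genes tested was -0.07, and 10.3% of them changed at least 4-fold. Of the 8 clade B genes, 5 passed the filter only through the group in which they were high (SERPINB1, SERPINB2, SERPINB3, SERPINB7 and SERPINB13), so these had to differ, and the 21 members not tested are left out of the counts. None of the 5 genes of other clades passed in this way. Within libraries 1 to 3 and within libraries 4 to 8 each of the 12 genes called had the direction given here, with log2 fold changes of, for example, -2.25 and -2.78 for SERPINB5 and 5.62 and 5.37 for SERPINB1.

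The second comparison set the libraries labelled as the olaparib-resistant line beside those of its parent, within the same limit. In A2780 OlaR against A2780, 14 serpins had at least 1 FPKM in 8 of the 16 libraries, and 13 were called, 9 higher and 4 lower, where all 12458 genes tested gave 89.8%, with 40.1% higher and 49.7% lower. The 4 lower genes were SERPINB1, SERPINB9, SERPINF1 and SERPINH1. The libraries lay apart for 12 serpins, against 74.1% of all genes tested. For such genes the exact permutation test (two-sided) can only give p = 0.000155, the smallest p that 8 and 8 libraries allow. In clade B 8 of 9 tested genes were called, and the 9 had a median log2 fold change of 1.51. In the other clades 5 of 5 were called, with a median of 0.20. All genes tested had a median of -0.12. Of the 9 clade B genes, 8 passed the filter only through the group in which they were high, and SERPINB6 was the exception. These 8 are the 8 called and had to differ, so the clade B count and median were largely set by the filter. None of the 5 genes of other clades passed in this way. SERPINI1, the call nearest the threshold, had a log2 fold change of 0.47 in libraries 1 to 3 but 0.03 in libraries 4 to 8.

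The other 2 comparisons cross cell lines by their labels, so line and condition cannot be told apart in them either. Between A2780 OlaR and C13* shCON, 13 serpins were tested and 10 called, 5 higher and 5 lower in A2780 OlaR, against 42.2% of 11547 genes, with 19.3% higher and 22.9% lower. The libraries lay apart for 6 of the 13, against 16.6% of all genes tested. Apart from SERPINB2 and SERPINB7 the log2 differences were at most 0.52 in size, as for SERPINH1 (0.40, limma adjusted p = 2.61e-05) and SERPINB8 (-0.47, limma adjusted p = 7.85e-07). SERPINB5 (0.00, limma adjusted p = 0.988), SERPINF1 (-0.07, limma adjusted p = 0.341) and SERPINI1 (0.17, limma adjusted p = 0.134) did not pass. The value of SERPINB5 joins opposite differences, 0.24 in libraries 1 to 3 (limma adjusted p = 0.00104) and -0.15 in libraries 4 to 8 (limma adjusted p = 0.0285). SERPINI1 was at 0.37 in libraries 1 to 3 (limma adjusted p = 0.0116) and 0.06 in libraries 4 to 8 (limma adjusted p = 0.559). Between A2780 and C13* shCEBPB, 10 serpins were tested and 9 called, 4 higher and 5 lower in A2780, against 88.9% of 12234 genes, with 51.5% higher and 37.4% lower. The libraries lay apart for 8 of the 10, against 72.3% of all genes tested. SERPINF1, SERPINB9, SERPINH1 and SERPINI1 were higher in A2780, and SERPINB5 (log2 fold change -2.76), SERPINB8 (-1.13), SERPINE2 (-0.71) and SERPINB6 (-0.30) were among those lower. SERPINI1 overlapped between these groups and was not called within libraries 1 to 3 (log2 difference 0.20, limma adjusted p = 0.0953). With quantile normalization SERPINI1 was called in the opposite direction (log2 difference -0.18, limma adjusted p = 0.0386). SERPINB5, SERPINB8 and SERPINB9 passed the filter here only through the group in which they were high, so these 3 had to differ. The comparisons share groups with each other, so they are not independent of one another.

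**Figure D5:**
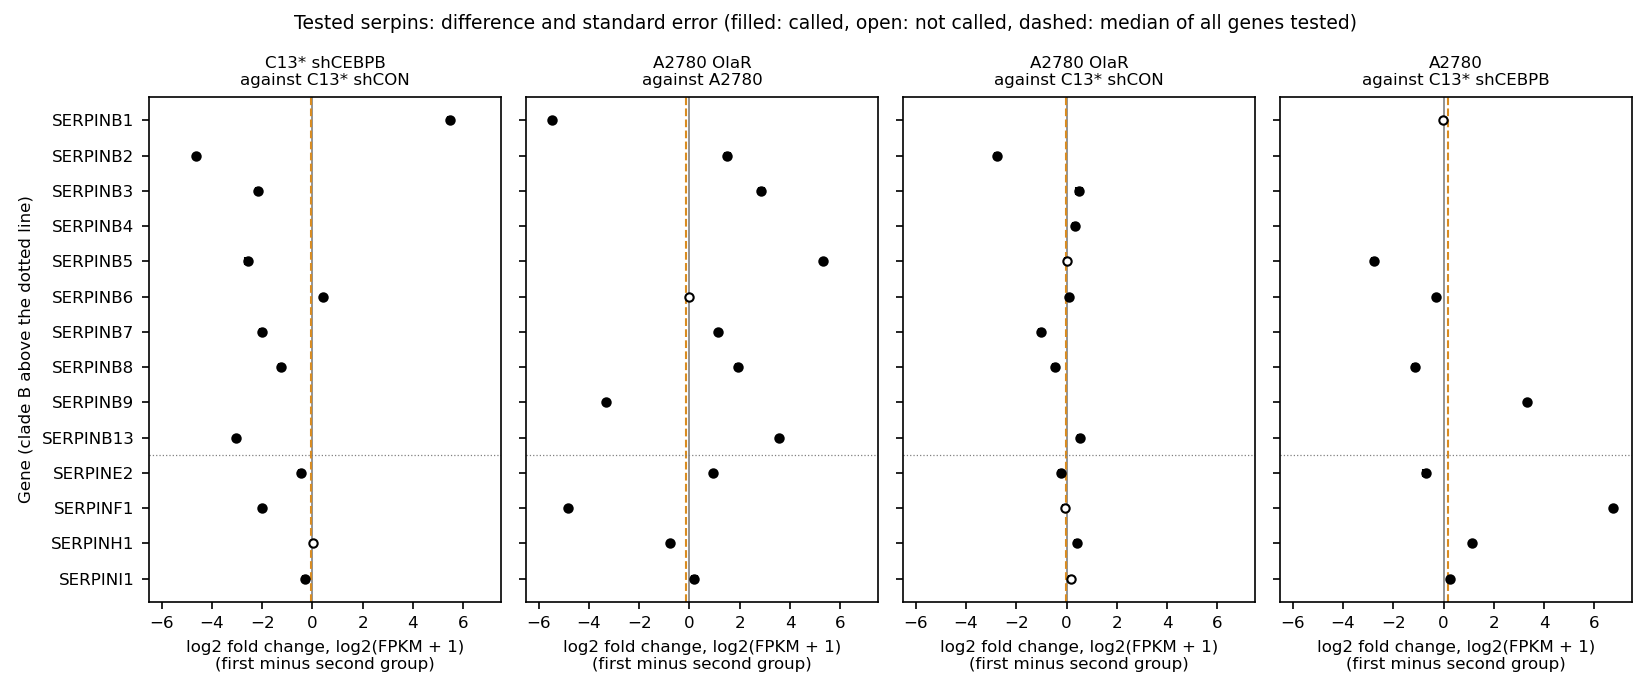
Log2 fold change on the log2(FPKM + 1) scale (x axis, first minus second group) with its standard error for serpins tested, in the 4 comparisons, with filled dots for genes called by limma, open dots for genes not called and a dashed line at the median of all genes tested. Clade B genes, above the dotted line, reach from -4.64 to 5.46 in the first panel, where the other clades reach from -1.99 to 0.04. Both ends of the clade B range are genes that passed the filter only through the group in which they were high.

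A list of 52 proteases, cofactors, receptors and partners of serpins was set beside the family. In C13* shCEBPB against C13* shCON, 31 of them were tested and 30 called, 9 higher and 21 lower, with a median log2 fold change of -1.07, where all genes gave 84.7% called, 38.9% higher and 45.7% lower and a median of -0.07. In A2780 OlaR against A2780, 35 were tested and 34 called, 23 higher and 11 lower, with a median of 0.87, where all genes gave 89.8% called, 40.1% higher and 49.7% lower and a median of -0.12. The counts were 23 of 31 (13 higher) in A2780 OlaR against C13* shCON, against 42.2% of all genes, and 23 of 27 (10 higher) in A2780 against C13* shCEBPB, against 88.9%. Tissue factor (F3), which starts coagulation, was at 566 ± 21.2 FPKM (SD, n = 7) in C13* shCON and 357 ± 31.2 (SD, n = 8) in A2780 OlaR, but at 2.58 in C13* shCEBPB and 2.74 in A2780. The kallikrein KLK10 was at 36.6 and 50.2 FPKM in C13* shCON and A2780 OlaR and at 0.027 and 1.35 in C13* shCEBPB and A2780. The membrane proteases ST14 and PRSS8 were at 31.5 and 34.4 in C13* shCON, and at 10.8 and 0.291 in C13* shCEBPB.

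Serpins and their targets ran in the same direction in some pairs and in opposite directions in others. Furin, which SERPINB8 inhibits, was at 6.95 FPKM in C13* shCON and 44.7 in C13* shCEBPB (log2 fold change 2.51, limma adjusted p = 1.95e-15), and at 21.8 in A2780 and 5.02 in A2780 OlaR (log2 fold change -1.92, limma adjusted p = 1.5e-16), the reverse of SERPINB8 in both comparisons. Cathepsin L (CTSL), a target of SERPINB3 and SERPINB13, rose in C13* shCEBPB from 46.3 to 90.5 FPKM (log2 fold change 0.95, limma adjusted p = 2.85e-12), where both serpins fell, but was also higher in A2780 OlaR (41.8) than in A2780 (35.5), where both serpins were higher too (log2 fold change 0.23, limma adjusted p = 8.99e-07). In C13* shCEBPB against C13* shCON, cathepsin V (CTSV) fell from 5.08 to 1.7 FPKM (log2 fold change -1.17, limma adjusted p = 2.66e-12). Cathepsin S (CTSS) fell from 1.43 to 0.156 FPKM in that comparison (log2 fold change -1.07, limma adjusted p = 1.85e-13). In A2780 OlaR against A2780, CTSV was also lower (4.16 against 12.7 FPKM), but CTSS was higher (1.27 against 0.157 FPKM). In both comparisons CTSS passed the filter only through the group in which it was high, so it had to differ. Granzyme B, elastase and cathepsin G, the leukocyte proteases that SERPINB9, SERPINB1 and SERPINB6 inhibit, did not pass the filter in any comparison. Proteinase 3 (PRTN3), another granule protease that SERPINB1 inhibits, was at 2.77 FPKM in A2780, 0.4 in C13* shCEBPB, 0.0392 in A2780 OlaR and 0 in C13* shCON. It was lower in A2780 OlaR than in A2780, as SERPINB1 was (log2 fold change -1.84, limma adjusted p = 6.41e-15), and passed the filter there only through A2780. These pairs were picked after their values were seen.

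Serpin levels also differed within groups between ranges of library numbers. Libraries 1 to 3 lay apart from libraries 4 to 8 for 8 of the 14 serpins at 1 FPKM or more in A2780 OlaR, 4 of 9 in C13* shCEBPB, 2 of 8 in A2780 and 0 of 12 in C13* shCON. Over all genes at 1 FPKM or more the shares were 57.2%, 53.4%, 20.7% and 4.77% in the same order, so the serpins were near the background. In A2780 OlaR, SERPINB3 was at 7.7 to 8.52 FPKM in libraries 1 to 3 and 4.1 to 5.96 in libraries 4 to 8, and SERPINI1 at 1.83 to 2.54 and 1.23 to 1.64. SERPINH1 went the other way there, at 101 in libraries 1 to 3 and 109 to 124 in libraries 4 to 8. In C13* shCEBPB, SERPINB5 was at 6.68 to 7.91 and 4.27 to 6.25 in the same ranges. The mean ratios of the 2 ranges lay between 0.549 for SERPINF2 in C13* shCEBPB and 1.51 for SERPINI1 in A2780 OlaR. The labels do not say what the ranges are.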

How the data were processed

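The values the authors deposited are FPKM, 1 table for 31 libraries. Per the study's methods, libraries made with an mRNA-seq kit were read as 150-bp pairs, mapped to hg38 with TopHat and counted with HTSeq. The tool and annotation behind the FPKM and the use of strand are not given in the sources used here. After leaving out 4 entries with repeated symbols, 19221 genes remained. Groups came from the sample labels. The authors tested counts with edgeR, but the deposited values are FPKM, so limma 3.58.1 in R 4.3.3 (lmFit, eBayes with trend) was run on log2(FPKM + 1) of the 2 groups compared, over genes that reached 1 FPKM in a number of libraries equal to the size of the smaller group (7 or 8). Tests were two-sided, p was Benjamini-Hochberg adjusted over all genes tested, and genes under 0.05 were called. Fold changes on this scale understate the change of low genes. Described members had a group mean of at least 1 FPKM, and those called without overlap at 4-fold or more are given in full. In simulated data with 200 changed genes, 196 were found over 12006 genes for C13* and 198 over 12458 for A2780. Of the calls, 3.45% and 4.35% were false. The simulated noise was normal, without a shift between library ranges, and far fewer genes changed than were called in the data. The check does not cover those conditions. Of 27815 values under 0.1 FPKM, 84.3% lay within 0.05 of whole steps, against 10% by chance, which gave relative depth but no read totals. The labels call the libraries replicates and p-values measure the spread between them. Same-numbered libraries did not deviate together (mean r across genes -0.261 to -0.148). The members, gene lists and library ranges were chosen with earlier results of these data known. Positions and exons are from GENCODE 44 on hg38, matched by symbol for 34 of 34 members. Python 3.11.15 was used for the other steps. Of the serpins and of their targets and partners, 1 gene each is in the counts but not reported here.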

Additional observations from a re-analysis of the deposited data

Results flagged for a closer look

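SERPINB4 in A2780 OlaR replicate 7 was at 0.666 FPKM, while the other 7 libraries of the group lay between 1.1 and 1.41. The gap to the nearest library was 0.626 of the group's range on the log2 scale, above Dixon's critical value of 0.526 for 8 samples. Without this library the log2 difference of SERPINB4 between A2780 OlaR and C13* shCON was 0.40 in place of 0.34 and was still called.

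SERPINI1 in C13* shCON replicate 6 was at 1.07 FPKM, against 1.39 to 1.64 in the other libraries of the group (gap 0.583 of the range, critical value 0.568 for 7 samples). Without it the log2 fold change of SERPINI1 in C13* shCEBPB against C13* shCON was -0.34 in place of -0.30 and was still called. These are 2 of 43 sets of a serpin in a group that were examined, and chance flags about 1 in 20.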

How the results depend on the processing

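The number of serpins called was within 1.5 times the reported one in nearly all alternatives. The exceptions were a filter at FPKM 5, with 7 called in A2780 OlaR against A2780 and 5 in A2780 against C13* shCEBPB, no filter, with 16 in A2780 against C13* shCEBPB, and a fold change of at least 2, with 2 in A2780 OlaR against C13* shCON. The filters change which members are tested. The fold change of at least 2 also left 3539, 4446, 68 and 4710 of all genes in the 4 comparisons, in the order given, from 10166, 11190, 4876 and 10877. With the replicate number as a block, 12, 13, 9 and 9 serpins were called, and the block moved the count of all genes by at most 1.5 times (3436 from 4876 in A2780 OlaR against C13* shCON). SERPINB6 lost its call there under the block (log2 difference 0.08, adjusted p = 0.188). It also lost it without C13* shCON replicate 1, the library with 2 cell lines in its labels (log2 difference 0.09, adjusted p = 0.0567). Leaving out single libraries was chosen after seeing the data.

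Of 663 values of single members under an alternative, 610 kept their direction and their side of the threshold, 35 were no longer past it, 6 became so and 12 changed direction. With quantile normalization the log2 difference of SERPINH1 in C13* shCEBPB became -0.12 (limma adjusted p = 0.0126), and that of SERPINB6 in A2780 OlaR against A2780 0.000953. In A2780 against C13* shCEBPB those of SERPINB1 and SERPINI1 became 0.11 and -0.18 (limma adjusted p = 0.106 and 0.0386). Within libraries 1 to 3 they were -0.14 for SERPINH1 in C13* shCEBPB and 0.0114 for SERPINB6 in A2780 OlaR against A2780. Within libraries 4 to 8 they were -0.15 for SERPINB5 and 0.0158 for SERPINF1 in A2780 OlaR against C13* shCON, and 0.12 for SERPINB1 in A2780 against C13* shCEBPB. Without C13* shCON replicate 1 the value of SERPINB5 in A2780 OlaR against C13* shCON was -0.0129, and over the libraries left out it ran up to 0.00995, which keeps the direction. With a common sum of FPKM they were -0.00841 for SERPINB5 in A2780 OlaR against C13* shCON and 0.0419 for SERPINB1 in A2780 against C13* shCEBPB. Of the genes in these 12 values, only SERPINI1 in A2780 against C13* shCEBPB was called in the reported fit. The cause was not tested. SERPINB6 in A2780 OlaR against C13* shCON also lost its call with quantile normalization, within either range of libraries, when all 4 groups shared 1 fit and with sums of FPKM made equal. SERPINI1 in A2780 OlaR against A2780 was not called with a pseudocount of 0.1 or 0.01, without the filter, with a common sum or within libraries 4 to 8. Depth limits the values near 0, and absolute depth is unknown.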
